A study of Mus musculus with 4 samples.

Results

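The nuclear-encoded genes of the mitochondrial respiratory chain were followed in mouse embryonic stem cells before and after 24 h with all-trans retinoic acid (ATRA). Members were the rows of the count tables whose gene symbol begins with Nduf followed by a, b, c, s or v and a number (complex I), is Sdha, Sdhb, Sdhc or Sdhd (complex II), or begins with Uqcr (complex III), Cox4 to Cox8 (complex IV) or Atp5 (complex V). This rule used no measured value and gave 84 of 23420 genes: 37 in complex I, 4 in complex II, 8 in complex III, 18 in complex IV and 17 in complex V. The symbol rule takes in Atp5s and Atp5sl, which carry the prefix but are not subunits of the finished enzyme, and leaves out the electron carrier Cycs and the subunit Cyc1. All libraries came from wild type E14 cells, a feeder-free stem cell line kept with leukemia inhibitory factor. The 2 control libraries were sampled at 0 h and the 2 ATRA libraries after 24 h with 1 µM ATRA, a ligand of the retinoic acid receptors that starts differentiation of these cells. Whether the 0 h cells were given vehicle, and whether replicates were separate cultures, is not in the labels. The effect of ATRA and that of 24 h in culture therefore cannot be told apart, and p-values measure only the spread between these libraries.

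The respiratory chain passes electrons from NADH (complex I) or succinate (complex II) through ubiquinone to complex III, on by cytochrome c to complex IV and to oxygen, and the proton gradient built on the way drives ATP synthesis by complex V. Each complex except the second mixes a few subunits encoded in mitochondrial DNA with many encoded in the nucleus, so their transcripts come from separate genomes. Mouse embryonic stem cells in serum and leukemia inhibitory factor rely strongly on glycolysis while keeping active mitochondria, and exit from pluripotency is accompanied by remodelling of energy metabolism. No mitochondrially encoded gene was in the tables, so only the nuclear part is described.

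The libraries held 11086233 to 31005634 counts in genes. The ATRA libraries differed from each other far more than the controls did: the chi-square of their counts per degree of freedom was 62.9, against 8.34 for the controls. The difference followed the GC content of the transcripts over all genes tested. ATRA replicate 2 was below ATRA replicate 1 (median log2 difference −1.03) among genes of 55% GC or more and above it (0.724) among genes under 45% GC, whereas the controls differed by −0.177 and 0.008 in the same classes. Results are therefore given without and with a correction that removes, library by library, the trend of expression on transcript GC content. This step removes every difference tied to GC content, whatever its source, and its part in the differences between groups was not tested. Naive pluripotency markers were read to describe the cells. Pou5f1 stood at 1278 and 1250 normalised counts (CPM, scaled by total and TMM factor) in the controls. In the ATRA libraries it stood at 307 and 106 CPM (uncorrected edgeR adjusted p = 0.0621). Tbx3 of the same list was at 22.5 and 23.4 against 30.7 and 33.6 CPM. Dppa5a was at 444.6 and 486.8 against 641.6 and 298.5 CPM, and Sox2 at 228.8 and 217.2 against 135.6 and 273.2 CPM. After correction edgeR called 5 of the 10 listed lower and 1, Tbx3, higher, against 7.3% and 7.85% of all genes. The neural progenitor gene Sox1 stood at 1.60 and 1.56 against 23.8 and 30.7 CPM (log2 fold change 4.10 ± 0.37 SE, edgeR adjusted p = 0.0196). Other neural progenitor markers went other ways: Tubb3, a neuronal tubulin, was at 113.1 and 95.8 against 19.99 and 9.79 CPM (log2 fold change −2.80 ± 0.42 SE, edgeR adjusted p = 0.0498), and the intermediate filament gene Nes at 248.3 and 206.9 against 214.1 and 294.5 CPM. The sum of the 6 neural progenitor markers, 382.5 and 322.5 against 299.2 and 398.2 CPM, overlapped between groups. The summed level of 10 naive pluripotency markers was 3442 and 3466 against 1638 and 1261 CPM, that of 6 extraembryonic endoderm markers 3.79 and 3.65 against 10.5 and 13.5, that of 6 trophoblast markers 240.7 and 216.2 against 102.6 and 55.5, and that of 7 fibroblast markers 215.5 and 154.8 against 106.5 and 106.6. Most of the trophoblast and fibroblast sums came from Krt8 (201.6 and 180.3 against 67.5 and 20.1 CPM) and Col1a1 (141 and 91.8 against 40.05 and 24.1 CPM). In the same lists Cdx2, Gata3 and Dcn were higher with ATRA after GC correction (corrected log2 fold changes of 2.60, 1.251 and 1.88, edgeR adjusted p = 0.0234, 0.0483 and 0.0439). Each listed marker had counts in at least 1 library. The sums of the 4 lists other than the neural one did not overlap between groups, and the part of these cell types in the values below was not tested. In such bulk samples fewer cells of a type and less RNA per cell cannot be told apart.

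Members of a single enzyme differ widely in base composition, and the following coding sequences show the range. They are the first 150 coding bases of the members with the lowest and the highest uncorrected fold change in complex I (Ndufs7 and Ndufs1) and in complex III (Uqcr11 and Uqcrb), among those with at least 5 CPM in the higher group, from GENCODE M21 transcripts. Capitals mark G and C.
Ndufs7: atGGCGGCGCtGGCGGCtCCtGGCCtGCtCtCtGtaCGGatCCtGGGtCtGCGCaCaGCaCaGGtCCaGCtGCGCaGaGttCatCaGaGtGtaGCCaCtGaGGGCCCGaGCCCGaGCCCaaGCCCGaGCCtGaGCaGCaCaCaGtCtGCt
Ndufs1: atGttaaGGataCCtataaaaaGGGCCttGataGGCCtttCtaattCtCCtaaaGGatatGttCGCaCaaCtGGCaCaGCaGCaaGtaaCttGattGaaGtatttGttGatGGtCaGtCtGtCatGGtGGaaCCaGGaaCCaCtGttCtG
Uqcr11: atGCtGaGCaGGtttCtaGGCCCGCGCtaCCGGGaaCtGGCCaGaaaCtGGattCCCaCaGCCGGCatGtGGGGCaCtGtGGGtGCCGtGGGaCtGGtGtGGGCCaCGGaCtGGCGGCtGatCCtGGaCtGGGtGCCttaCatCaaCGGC
Uqcrb: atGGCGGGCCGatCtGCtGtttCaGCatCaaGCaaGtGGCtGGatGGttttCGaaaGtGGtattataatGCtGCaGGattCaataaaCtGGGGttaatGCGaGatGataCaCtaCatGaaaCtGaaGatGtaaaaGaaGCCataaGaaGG
G and C made up 66.0% of the stretch in Ndufs7 and 64.0% in Uqcr11, against 42.0% in Ndufs1 and 42.7% in Uqcrb. On GRCm38, Ndufs7 lies at chr10:80249121-80256794 on the plus strand, Ndufs1 at chr1:63143596-63176833 on the minus strand, Uqcr11 at chr10:80402997-80406830 on the minus strand and Uqcrb at chr13:66900617-66905378 on the minus strand. The whole reference transcripts hold 60.69%, 45.13%, 58.88% and 42.24% GC in that order.

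Most members were lower in the ATRA libraries, but none passed the test without correction. Of the 84 members, 79 passed the filter on low counts. Ndufs5 and Cox8b had 0 counts in every library, and Ndufa4l2, Cox6a2 and Cox8c had between 0 and 10. By the quasi-likelihood F test of edgeR, adjusted after Benjamini and Hochberg, 0 of 79 members were lower and 0 higher, against 0.407% and 0.723% of all 14256 genes tested. The smallest adjusted p of a member in that edgeR test was 0.0583, for Ndufs7. At an unadjusted p under 0.05, 27 members were lower and 3 higher, against 22.8% and 18.9% of all genes. DESeq2 called 26 members lower and 1, Uqcrb, higher, against 18% and 12.5% of all genes. After GC correction edgeR called 10 members lower and 0 higher, against 7.3% and 7.85% of all genes. Both ATRA libraries lay below both controls for 50 members and above both for 15, against 41.5% and 40% of all genes. After GC correction these counts were 43 and 12, against 34.9% and 35.3%. The median log2 fold change over the tested members was −0.71 without and −0.35 with GC correction, where all genes tested had medians of −0.015 and 0.01.

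As a share of the TMM-scaled library, the summed counts of the 84 genes were 1.01% and 1.035% in the controls and 0.860% and 0.757% in the ATRA libraries. Complex V held the most counts, 5108 and 5262 CPM in the controls and 4417 and 3839 CPM in the ATRA libraries. Complex I summed to 2228 and 2208 against 1801 and 1699 CPM, and complex IV to 1256 and 1390 against 1056 and 732 CPM. Complex III summed to 897 and 872 against 780 and 820 CPM and complex II to 611 and 614 against 544 and 484 CPM. The sums were lower in both ATRA libraries than in both controls for each of the 5 complexes. The lowest ATRA sum was that of replicate 2 in every complex except III, where it was that of replicate 1.

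**Figure D1:**
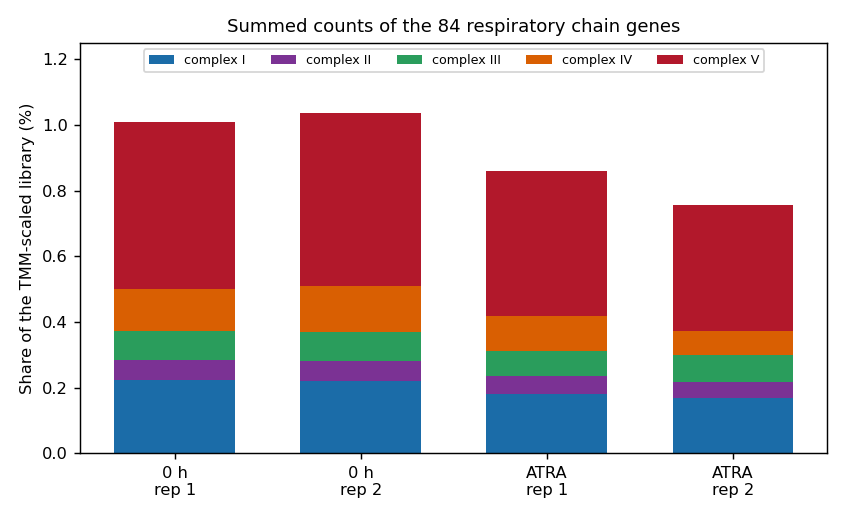
Bars give, for each library, the summed counts of the 84 members as a percentage of the TMM-scaled library, stacked by complex. The totals are 1.01% and 1.035% at 0 h and 0.860% and 0.757% with ATRA, and complex V is the largest block in all 4 libraries.

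The size of the differences depended on the ATRA library. Against the control mean, the median log2 ratio of the tested members was −0.37 in ATRA replicate 1 and −1.12 in ATRA replicate 2. Among complexes the split was widest in complex IV (−0.33 and −1.69) and narrowest in complex II (−0.37 and −0.75). ATRA replicate 2 was below replicate 1 for 57 members and above it for 22. The ATRA libraries differed by over 1.5-fold for 46 of the 79 members, and the controls for 6. Of the members, 55 were below the control mean in both ATRA libraries and 17 above it in both. The shares of all genes for these counts were not computed. On the stricter measure given above, 50 members had both ATRA libraries below both controls and 15 above both. All genes had 41.5% and 40% there, so a shared direction was common over all genes. Without ATRA replicate 2, edgeR called 33 of 80 members lower and 5 higher, against 25.5% and 23.4% of all genes tested. With GC correction that fit gave 27 and 6, against 17% and 17%. Without ATRA replicate 1 it called 47 of 79 lower and 14 higher, against 35.4% and 33.6%, and with GC correction 39 and 11, against 20.7% and 23.3%. These fits leave 1 ATRA library, which is assumed to vary as the controls do. With GC correction and either control left out, 0 members and 0 genes in all were called.

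**Figure D2:**
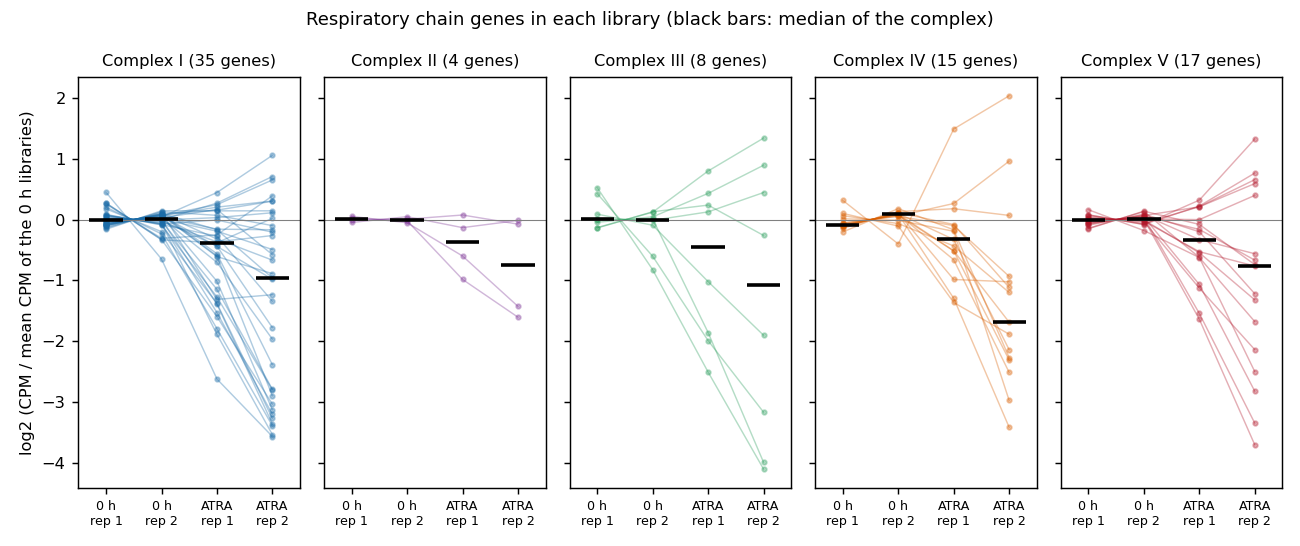
Points give the log2 ratio of each tested member's CPM to its mean at 0 h in each library, one panel per complex, and thin lines join the values of a gene without implying an order of replicates. Black bars are the medians, which lie near 0 at 0 h and lowest in ATRA replicate 2, with the widest gap between ATRA libraries in complex IV.

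The uncorrected fold change of a member followed its transcript's GC content. Spearman's rho between them was −0.686 over the 79 tested members and −0.748 over 14146 genes, a description across genes that share the 4 libraries. Of 11 members under 45% GC, 8 had a positive fold change, and of 23 members of 55% GC or more, 22 had a negative one. The median log2 fold change of members was 0.46 under 45% GC, −0.04 at 45 to 50%, −0.79 at 50 to 55% and −1.73 at 55% or more. All genes tested had 0.90, 0.36, −0.41 and −1.38 in the same classes, so the members' median lay below that of all genes in each class. After correction the members' medians were −0.36, −0.18, −0.34 and −0.37, and those of all genes lay between −0.01 and 0.02. The sign of the fold change differed between the uncorrected and corrected fits for 23 members, 12 from positive to negative and 11 from negative to positive. Most members have short transcripts: the 48 under 1000 bases had a median corrected log2 fold change of −0.36 against −0.18 for all genes of that length, and the 31 longer ones −0.34 against 0.02.

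**Figure D3:**
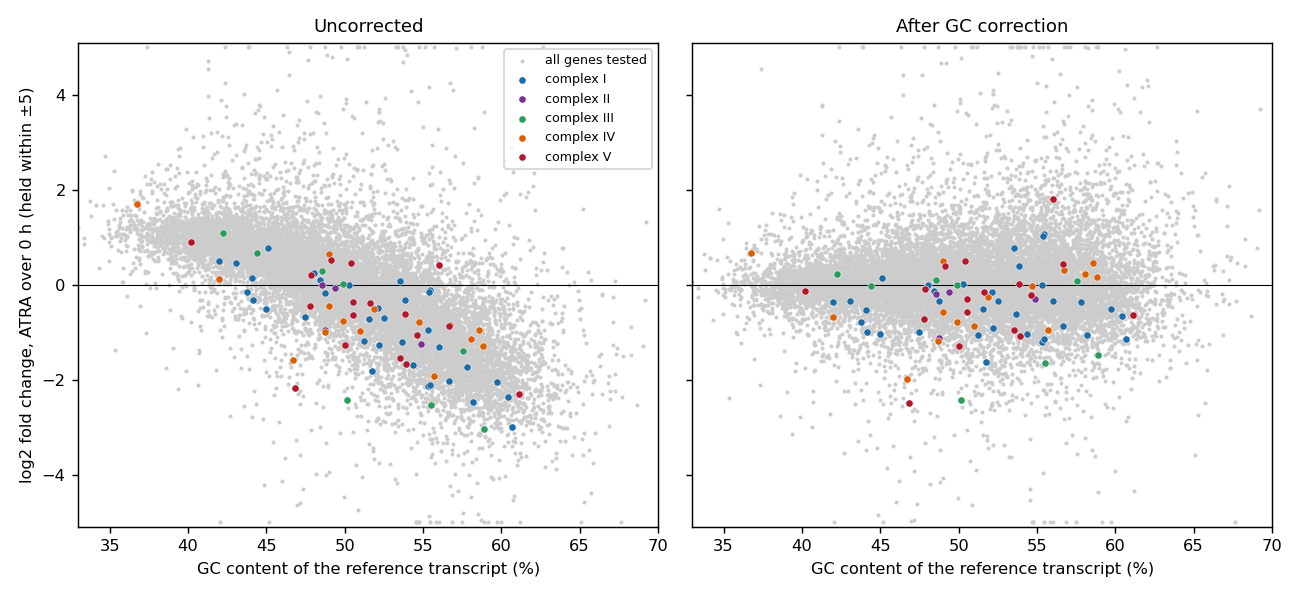
Each point is a gene, with the GC content of its reference transcript on the x axis and its log2 fold change (ATRA over 0 h) on the y axis, before (left) and after (right) GC correction; grey points are all genes tested and coloured points the members. The slope seen on the left (rho −0.686 for members) is what the correction takes out, and members on the right (rho 0.028) spread around a median of −0.35. Against the GC content of the coding sequence, not drawn, corrected fold changes had a rho of −0.288 for members and −0.027 for all genes.

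Complex I takes electrons from NADH by a flavin and a chain of iron-sulphur clusters held by 7 nuclear-encoded core subunits, around which accessory subunits support assembly and stability. Its 35 tested members had a median log2 fold change of −0.68 uncorrected and −0.50 corrected, with 27 and 29 negative values. The core subunits did not move together. Ndufs7, which carries the last iron-sulphur cluster before ubiquinone, was at 43.2 and 20.2 CPM in the controls and at 5.16 and 2.68 CPM with ATRA (log2 fold change −2.99 ± 0.55 SE). Its controls differed from each other about as much as the ATRA libraries did, and the groups did not overlap. Ndufv1, the NADH-binding subunit, was at 136.7 and 105.4 against 46.6 and 12.6 CPM, and its partner Ndufv2 at 114.8 and 114.2 against 138.0 and 186.9 CPM. The pair that forms the electron entry site thus had log2 fold changes of opposite sign, −2.02 ± 0.61 SE and 0.50 ± 0.28 SE, neither past the edgeR test (adjusted p = 0.0804 and 0.202). Ndufs1, the largest subunit, was at 185.8 and 197.1 against 260.2 and 397.4 CPM, higher in both ATRA libraries. Ndufs8, another cluster-bearing subunit, was at 38.4 and 37.0 against 17.02 and 5.46 CPM, and Ndufs3 at 24.2 and 24.5 against 21.3 and 17.3 CPM. The core subunits with positive values had the lowest transcript GC content, 41.96% in Ndufv2 and 45.13% in Ndufs1, whereas Ndufv1, Ndufs8 and Ndufs7 have 56.65%, 57.78% and 60.69%. After correction the log2 fold changes were −0.36 for Ndufv2, 0.14 for Ndufs1, 0.39 for Ndufs3, −0.37 for Ndufs8, −0.88 for Ndufv1 and −1.14 for Ndufs7, and 0 of the 7 core subunits passed.

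Among the 28 accessory subunits tested, 4 fell after GC correction, where 7.3% of all genes tested did. Ndufa11, a membrane-arm subunit at chr17:56717767-56722141, was at 68.3 and 62.8 CPM against 17.7 and 5.67 CPM uncorrected and at 36.1 and 38.4 against 20.1 and 15.5 CPM corrected (log2 fold change −1.05 ± 0.17 SE, edgeR adjusted p = 0.0252). Ndufa7, a subunit of the matrix arm at chr17:33824572-33838317, was at 62.0 and 59.99 against 32.3 and 19.7 corrected CPM (−1.22 ± 0.24 SE, edgeR adjusted p = 0.0374). Ndufs6, a zinc-binding subunit at chr13:73319838-73328542, was at 28.0 and 19.7 against 12.3 and 8.98 corrected CPM (−1.14 ± 0.26 SE, edgeR adjusted p = 0.0452). Ndufc1, a small membrane subunit at chr3:51404677-51408988, was at 12.1 and 11.4 against 9.11 and 9.79 CPM before correction (log2 fold change −0.32), and stood at 15.5 and 14.5 against 8.74 and 6.26 CPM after it (−1.002 ± 0.23 SE, edgeR adjusted p = 0.0469). The corrected groups of these 4 genes did not overlap. The Ndufc1 value depends on the GC reference: its whole transcript holds 44.12% GC and its coding part 53.51%, and with the coding part as reference its log2 fold change was 0.02. Ndufa4, now known to sit in complex IV, had the highest level per kilobase among these genes (250 CPM per kb in the controls) and was at 136.5 and 168.5 against 168.3 and 168.4 CPM. Its groups overlapped, and its log2 fold change was 0.14 ± 0.26 SE uncorrected and −0.53 ± 0.22 SE corrected. The remaining accessory subunits ranged from −1.62 to 1.07 after correction, and 0 of them passed.

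Complex II, succinate dehydrogenase, also works in the citric acid cycle and is wholly nuclear-encoded. Its catalytic flavin subunit Sdha was at 304.7 and 307.3 CPM in the controls and at 322.1 and 290.4 CPM with ATRA, so the groups overlapped (log2 fold change 0.00 ± 0.25 SE). Sdhd, one of the membrane anchors, was at 130.3 and 139.2 against 122.8 and 133.3 CPM and overlapped too. The iron-sulphur subunit Sdhb was at 91.2 and 88.7 against 45.5 and 29.6 CPM, and the other anchor Sdhc at 84.4 and 78.5 against 53.8 and 30.3 CPM. Both were lower in each ATRA library, with log2 fold changes of −1.26 ± 0.31 SE and −0.95 ± 0.35 SE. After correction Sdhb stood at −0.30 ± 0.13 SE, Sdhc at −1.11 ± 0.31 SE and Sdhd at −0.16 ± 0.10 SE, and 0 of the 4 passed the edgeR test in either fit. With the coding part as GC reference the log2 fold changes were −0.95 for Sdhb, −0.64 for Sdhc, 1.27 for Sdhd and −0.05 for Sdha. The order of Sdhb and Sdhc and the sign of Sdhd thus depend on the GC reference.

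Complex III passes electrons from ubiquinol to cytochrome c. Its 8 members split evenly by direction, with 4 negative and 4 positive uncorrected log2 fold changes from −3.04 to 1.09. Uqcr11, the smallest subunit, was at 25.3 and 9.97 CPM against 3.11 and 1.03 CPM (log2 fold change −3.04 ± 0.69 SE), the lowest of all members. Uqcr10, another small subunit, was at 90.9 and 92.2 against 25.3 and 5.77 CPM. After correction it fell from 59.3 and 64.1 to 26.6 and 12.1 CPM (−1.64 ± 0.36 SE, edgeR adjusted p = 0.0428, gene at chr11:4701973-4704342). Uqcrq, the small ubiquinone-binding subunit at chr11:53427922-53430831, was at 33.5 and 16.4 against 6.29 and 2.78 CPM. Its value was the same with correction on the whole transcript (−2.43 ± 0.50 SE, edgeR adjusted p = 0.0391), which holds 50.16% GC. With its coding part (57.72% GC) as reference, Uqcrq was at −1.31 ± 0.365 SE (edgeR adjusted p = 0.0854). Its call was lost in the GC-corrected fit without either ATRA library. The opposite direction was seen for Uqcrb, a ubiquinone-binding subunit, which was at 32.2 and 38.3 against 61.2 and 89.1 CPM, above the controls in both ATRA libraries. Its log2 fold change of 1.09 ± 0.31 SE did not pass the edgeR test (adjusted p = 0.0778) but passed in DESeq2 (adjusted p = 0.0190), and it was 0.23 ± 0.14 SE after correction. The large core proteins also differed: Uqcrc1 was at 287.6 and 253.6 against 133.4 and 72.5 CPM and Uqcrc2 at 211.6 and 225.1 against 294.0 and 405.0 CPM. Their log2 fold changes were −1.39 ± 0.36 SE and 0.68 ± 0.28 SE without correction and 0.08 ± 0.14 SE and −0.02 ± 0.09 SE with it. Uqcrfs1, the Rieske iron-sulphur protein, was at 107.0 and 105.0 against 115.6 and 144.1 CPM. Uqcrh, which helps dock cytochrome c and had the highest level per kilobase in the complex (219.5 CPM per kb in the controls), was at 109.0 and 131.1 against 141.5 and 100.2 CPM and overlapped.

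Complex IV, cytochrome c oxidase, hands the electrons to oxygen. Its catalytic subunits are mitochondrially encoded, and the nuclear members support their assembly and regulation, several as tissue-specific paralogs. Of 15 tested members 12 were negative uncorrected, but 9 after correction, and the medians were −0.84 and −0.25. Cox6c at chr15:35925886-35938246 had agreeing replicates: 70.8 and 82.4 CPM in the controls and 38.7 and 37.7 CPM with ATRA. The corrected values of 76.1 and 86.8 against 37.9 and 34.0 CPM show that it fell (−1.18 ± 0.13 SE, edgeR adjusted p = 0.0143). Cox7c at chr13:86044816-86046904 was at 52.2 and 45.2 against 18.9 and 13.2 CPM, and fell in the corrected fit (−1.99 ± 0.31 SE, edgeR adjusted p = 0.0234). Uncorrected log2 fold changes were −1.003 and −1.60 for Cox6c and Cox7c, whose transcripts both lie under 50% GC. Cox6c was also the only member called when the correction used the GC content of the coding sequence (edgeR adjusted p = 0.0424), where 1.28% of all genes were lower and 1.77% higher. Cox5a, on the matrix side of the enzyme, was at 151.8 and 164.7 against 189.9 and 307.6 CPM, with log2 fold changes of 0.65 ± 0.32 SE uncorrected and 0.50 ± 0.21 SE corrected. Both ATRA libraries lay above both controls, and neither fit called it.

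The paralog families of complex IV were each led by the form that most tissues use. Shares below are of CPM per kilobase of reference transcript summed over the family, in the control and the ATRA mean. Cox4i1 made up 99.8% and 99.8% beside the lung-enriched Cox4i2. Its CPM were 376.9 and 416.4 in the controls and 277.4 and 80.2 with ATRA (log2 fold change −1.15 ± 0.57 SE uncorrected and 0.22 ± 0.21 SE corrected). With the coding part as GC reference Cox4i1 was at −0.92 ± 0.47 SE, so its sign after correction depends on the GC reference. Cox6a1 made up 100.0% and 99.9% beside Cox6a2 of heart and skeletal muscle, and had 98.8 and 111.5 against 66.5 and 18.4 CPM. Cox6b1 made up 92.8% and 96.3% beside the testis form Cox6b2. Cox6b2 was at 9.24 and 10.5 CPM against 4.03 and 0.928 CPM (−1.93 ± 0.61 SE), the lowest fold change of complex IV. Cox7a2 made up 59.5% and 63.9% of its family, the supercomplex factor Cox7a2l 35.2% and 31.7%, and the muscle form Cox7a1 5.26% and 4.41%. Cox7b made up 99.5% and 98.4%. Its paralog Cox7b2 had the highest fold change of all members (1.70 ± 0.53 SE) at a very low level, 0.439 and 0.267 against 0.989 and 1.44 CPM, and did not pass (edgeR adjusted p = 0.0829). Cox8a made up 99.9% and 99.8% beside Cox8c with 1 to 3 counts a library and Cox8b with 0. The upper limit set by 0 counts, 3 counts per library, ranged from 0.094 to 0.309 CPM and covers counting error only.

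**Figure D4:**
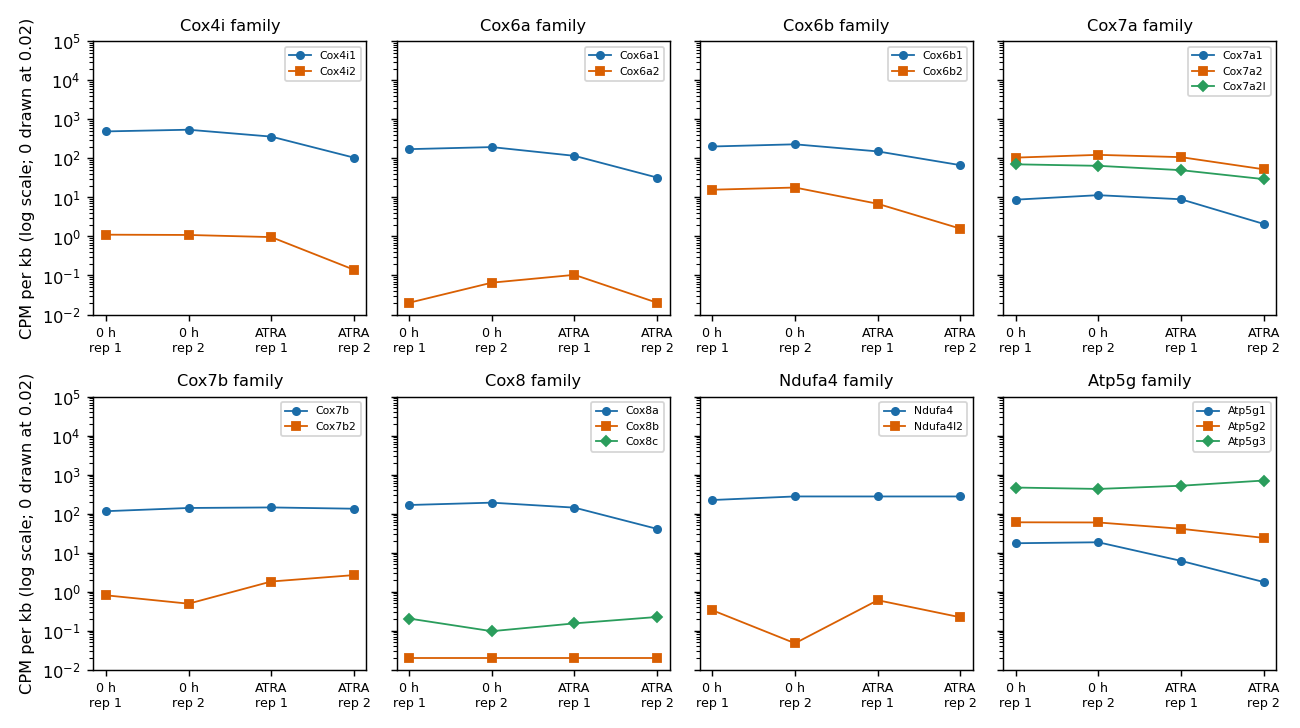
CPM per kilobase of reference transcript of each member of 8 paralog families in the 4 libraries on a log axis, with 0 drawn at 0.02 and lines joining the values of a gene. The leading form (for example Cox4i1, with a control mean of 518.5 CPM per kb) lies above its paralogs in every library, and Atp5g1 and Atp5g2 lie lower with ATRA while Atp5g3 lies higher.

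Complex V, the ATP synthase, has a catalytic F1 head, a peripheral stalk that holds it in place and a membrane part with the rotating ring. Atp5b and Atp5a1, the beta and alpha subunits of the head, held 69.4% of its CPM in the controls and 62.7% with ATRA. Atp5b was at 2247 and 2434 CPM against 2091 and 1475 CPM (log2 fold change −0.39 ± 0.30 SE), and had the highest level per kilobase of all members, 1222 CPM per kb in the controls. Atp5a1 at chr18:77773729-77782869 was at 1280 and 1236 against 872 and 741 CPM. After correction it was at 1256 and 1198 against 858 and 792 CPM and fell (log2 fold change −0.57 ± 0.09 SE, edgeR adjusted p = 0.0230), the smallest fold change among the 10 called members. Atp5c1, the gamma subunit that turns inside the head, was at 280.6 and 284.5 against 282.2 and 371.8 CPM and overlapped. Atp5d, the delta subunit beside it, was at 72.0 and 72.6 against 23.2 and 5.57 CPM (−2.31 ± 0.63 SE uncorrected, −0.65 ± 0.27 SE corrected). The 4 peripheral stalk members had a median of 0.02 uncorrected and 0.21 corrected, and 0 passed. With the coding part as GC reference their log2 fold changes ranged from −0.68 to −0.10. The sign of their corrected median thus depends on the GC reference. The 6 members of the membrane part had medians of −1.07 and −0.90.

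The ring subunit c is made from 3 genes that encode the same mature protein behind different import sequences. Atp5g3 was the main source, at 333.7 and 307.2 CPM in the controls and 370.8 and 504.3 CPM with ATRA. Atp5g1 was at 82.3 and 87.2 against 29.1 and 8.35 CPM, and Atp5g2 at 43.9 and 43.5 against 29.9 and 17.5 CPM. The Atp5g3 share of the family's CPM per kilobase was 85.2% in the controls and 94.4% with ATRA, the Atp5g1 share 3.41% and 0.612%, and the Atp5g2 share 11.4% and 5.00%. The Atp5g1 share rests on a reference transcript of 4715 bases, far longer than those of Atp5g2 and Atp5g3 (731 and 714 bases), and would be larger with a shorter one. Log2 fold changes were 0.45 ± 0.28 SE for Atp5g3, −2.17 ± 0.58 SE for Atp5g1 and −0.88 ± 0.35 SE for Atp5g2 uncorrected, and 0.51 ± 0.19 SE, −2.49 ± 0.65 SE and 0.45 ± 0.17 SE corrected, with 0 calls in either fit. The direction of Atp5g2 thus differed between fits. With the coding part as GC reference the log2 fold changes were 0.11 for Atp5g3, −1.29 for Atp5g1 and 0.13 for Atp5g2. Outside the finished enzyme, Atp5sl (Dmac2 in GENCODE, an assembly factor for complex I at chr7:25619414-25625551) was at 38.5 and 36.8 against 17.2 and 8.55 CPM and fell after correction (−0.95 ± 0.18 SE, edgeR adjusted p = 0.0340). Atp5s was at 5.92 and 5.30 against 6.99 and 14.0 CPM.

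**Figure D5:**
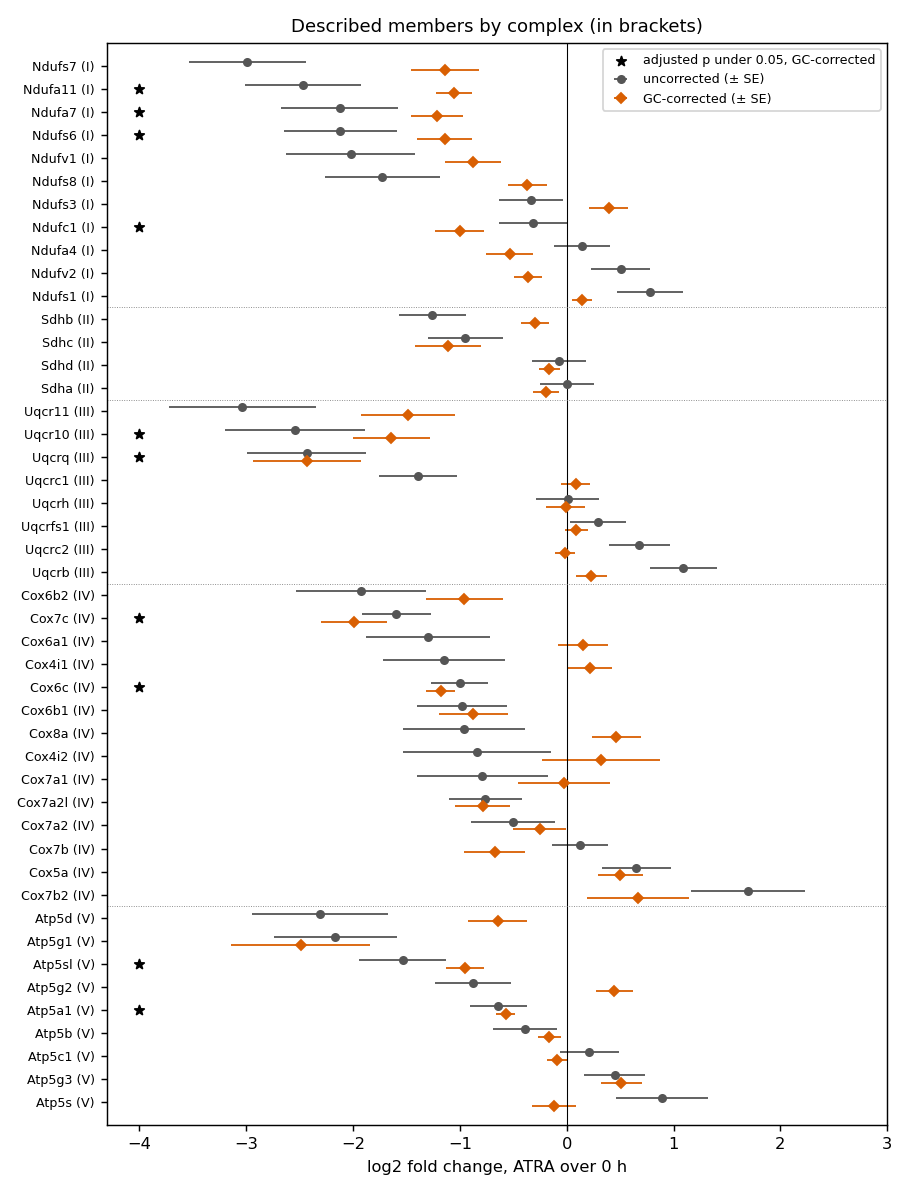
Log2 fold changes (ATRA over 0 h) with SE of the described members, sorted within complexes I to V, uncorrected (grey circles) and GC-corrected (orange diamonds). Stars mark the 10 members with an adjusted p under 0.05 after correction, all on the negative side, and the corrected values lie closer to 0 for most members with large uncorrected ones.

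The 10 called members were called unevenly by the other fits: 8 of them by DESeq2, 7 with the replicate block, 8 after correction for GC and length, 9 with the longest transcript as GC reference and 1 with the coding sequence. Atp5a1 was not called by DESeq2, with the replicate block, or with the longest transcript or coding sequence as reference. Ndufc1 was not called by DESeq2, with the replicate block, after correction for GC and length, or with the coding sequence. Of all genes, DESeq2 called 18% lower and the fit with the coding sequence 1.28%, against 7.3% in the GC-corrected fit. Leaving out a library leaves 1 in its group, and calls then depended on which library was left out. With either control left out, the GC-corrected fit called none of these members. Reads of some members can also match other genes. Of the 50-base stretches of the reference transcripts, 53.0% in Cox7c, 43.2% in Uqcrb and 21.1% in Cox6c also occur in transcripts of another gene, and 87.4% in Atp5g2. Over all 84 members, 47 share none and 14 share over 20%, and how the authors' counting treated such reads is not given in the sources used here. Ndufs5, at 0 in every library, shares 31.1% with other genes, the most with BC002163.

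Promoters of respiratory chain genes are known to be bound by NRF1, by GABPA of the ETS family and by YY1. RefSeq windows (GRCm38.p6, from 250 bases before to 50 after the start site) were found for 69 of the 84 members, 67 by symbol and 2 by synonym. Each motif was searched on both strands. CCGGAAG (ETS) occurred in 21.3% of the members' windows against 8.86% of all 32851 windows, GCGCATGC (NRF1) in 13.3% against 2.71%, AAGATGGC (YY1) in 16% against 2.75%, and the TATA box letters TATAAA in 10.7% against 13.6%. Below are the 250 bases before the start of the member with the lowest uncorrected fold change in complexes I, III and V among those with at least 5 CPM that hold the ETS or NRF1 letters there. Motif letters are in capitals.
Ndufa11: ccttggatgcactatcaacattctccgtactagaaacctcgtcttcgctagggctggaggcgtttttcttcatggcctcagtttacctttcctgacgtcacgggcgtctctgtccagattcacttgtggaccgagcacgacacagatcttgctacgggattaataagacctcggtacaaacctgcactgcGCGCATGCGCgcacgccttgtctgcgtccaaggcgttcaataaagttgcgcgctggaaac
Uqcr11: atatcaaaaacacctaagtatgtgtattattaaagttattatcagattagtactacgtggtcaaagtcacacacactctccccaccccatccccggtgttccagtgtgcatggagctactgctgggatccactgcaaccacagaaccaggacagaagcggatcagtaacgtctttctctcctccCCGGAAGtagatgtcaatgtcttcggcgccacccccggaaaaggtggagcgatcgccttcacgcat
Atp5k: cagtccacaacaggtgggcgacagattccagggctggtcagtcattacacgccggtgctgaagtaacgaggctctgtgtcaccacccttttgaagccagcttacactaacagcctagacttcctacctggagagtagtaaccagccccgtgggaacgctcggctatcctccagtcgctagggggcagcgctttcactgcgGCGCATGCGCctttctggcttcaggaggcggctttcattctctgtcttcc
These windows lie at chr17:56717512-56717761 on the plus strand, chr10:80406822-80407071 on the minus strand and chr5:108434400-108434649 on the minus strand. In Ndufa11 and Atp5k the NRF1 letters occur on both strands and overlap in 1 run, which begins 60 and 50 bases before the start. In Uqcr11 the ETS letters begin 66 bases before it. The full windows, which run to 50 bases after the start, also hold the NRF1 letters in Uqcr11 and the ETS letters in Atp5k. Those sites do not lie wholly within the printed bases. The median corrected log2 fold change of tested members was −0.51 for the 10 with the NRF1 letters and −0.35 for the 57 without, −0.26 and −0.36 for the ETS letters (16 and 51 members), −0.95 and −0.34 for the YY1 letters (11 and 56 members), and −0.89 and −0.34 for the TATA letters (6 and 61 members). Uncorrected, the same medians were −1.35 and −0.50 for NRF1, −0.97 and −0.62 for ETS, −0.95 and −0.65 for YY1 and −1.61 and −0.62 for TATA. The order of the ETS medians thus turned with the correction. These are descriptions with no test. Atp5k, a subunit of the membrane part, was at 41.6 and 44.2 against 20.5 and 6.08 CPM (log2 fold change −1.68 ± 0.56 SE uncorrected and −1.08 ± 0.34 SE corrected).

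Other nuclear genes of mitochondria, and ribosomal proteins, were read in the same fits. Of 254 tested genes in 7 such lists, the uncorrected edgeR test called 0, while 13 were higher and 80 lower at an unadjusted p under 0.05, and DESeq2 called 7 higher and 73 lower. The shares over all genes tested were 18.9% higher and 22.8% lower at that unadjusted p, and 12.5% and 18% by DESeq2. The counts below are read beside the 7.85% of all genes that were higher and the 7.3% that were lower after correction. After correction 1 of 37 respiratory assembly factors was higher, the copper chaperone Sco2 (8.65 and 9.93 against 10.7 and 3.81 CPM, log2 fold change −0.33 uncorrected and 1.24 corrected), and 1 lower, Cox15 of heme A synthesis (56.1 and 54.9 against 44.5 and 41.9 CPM, −0.67 corrected). Of 10 electron carriers and further subunits 0 passed. Cyc1, the cytochrome of complex III, was at 246.3 and 242.1 against 166.9 and 56.4 CPM, and Atpif1, the inhibitor of the ATP synthase, at 130.8 and 149.97 against 86.2 and 50.1 CPM. The subunits of the electron transfer flavoprotein, picked out after their values were seen, lay in opposite directions: Etfa was at 65.1 and 63.4 against 93.0 and 151.9 CPM and Etfb at 54.0 and 43.8 against 18.8 and 4.64 CPM. Among 15 biogenesis regulators 1 was lower, the mitochondrial RNA polymerase Polrmt (58.9 and 43.6 against 12.9 and 5.26 CPM, −0.68 corrected). Gabpa itself was at 173.2 and 167.8 against 203.9 and 348.0 CPM and did not pass. Citric acid cycle genes had 2 of 19 lower, the pyruvate dehydrogenase subunits Pdhb and Pdha1 with corrected log2 fold changes of −0.88 and −0.57. The import machinery had 2 of 20 lower, Tomm40 (211.5 and 179.0 against 42.0 and 14.6 CPM) and Timm13 (70.9 and 52.6 against 13.5 and 4.54 CPM). Mitochondrial ribosomal proteins had 12 of 76 lower and 0 higher, and cytosolic ribosomal proteins 20 of 77 lower and 0 higher. Their median log2 fold changes were −0.40 and −0.87 uncorrected and −0.34 and −0.60 corrected, beside −0.71 and −0.35 for the respiratory chain members. The medians of assembly factors were −0.11 and −0.15, of electron carriers 0.59 and −0.09, of biogenesis regulators 0.32 and −0.07, of citric acid cycle genes −0.10 and −0.29 and of import genes −0.21 and −0.35. The corrected medians of all these lists were negative, and differences between lists were not tested.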

How the data were processed

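RNA was measured by sequencing in 4 libraries, 2 control and 2 ATRA, grouped and numbered by their titles. The titles give 1 µM ATRA where a treatment label has mM; the text uses the titles. The authors deposited raw counts, whole numbers of reads for each symbol. Named in the submitters' processing notes, with no role, are HTSeq 0.6.0, TopHat2 2.0.7, Cuffdiff 2.0.2, Cufflinks 2.0.2 and the build mm10. Annotation and strand setting: not given in the sources used here. Overlapping genes (35 tested members overlap another) cannot be told apart. The 5 summary lines were left out, and 63.4% to 66.2% of counted reads were in no gene.

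The test was that of edgeR 4.0.16 (R 4.3.3), with filtering by group, TMM factors, and a robust quasi-likelihood fit (its current method; the older one was added as an alternative after seeing the counts of calls) with an F test, Benjamini-Hochberg adjustment and a threshold of 0.05, with no covariate. SE was derived from the fold change and F. CPM use TMM-scaled library sizes. For GC correction, each library's log2 CPM deviations (prior count 2) were fitted on transcript GC with a 5-df natural spline by robust regression (MASS) and entered as offsets; corrected CPM are divided by that trend. Transcripts were those marked principal in GENCODE M21 (83 members matched directly, 1 by an older symbol), chosen after seeing that the longest ones did not represent several short members. Alternatives were DESeq2 1.42.0, its size factors, 2 other filters, a replicate block, GC with length, other GC references, and leaving out each library. The scripts were tested on simulated counts. The members, lists and rules were chosen with earlier results of these data known.

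Described members were, by rule, those called in either fit, the core subunits, the paralog families, and in each complex the highest level per kilobase and the highest and lowest fold change with at least 5 CPM. Atp5k was described for its promoter. A gene that the rule names is not reported here singly and stays in the counts and medians. From the other lists mostly called or abundant genes were named. Outside that choice were Etfa, Etfb and Gabpa, and Pou5f1, whose list held other called genes. Markers that went against their list were named after values were seen. The grouping of complex V into head, stalk and membrane part was made after values were seen.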

Additional observations from a re-analysis of the deposited data

How the results depend on the processing

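The median of all members stayed negative under every alternative run, and so did those of complexes I, II and V. Counts below give members higher and lower, then all genes higher and lower, where the uncorrected fit gave 0 and 0, then 103 and 58. DESeq2 size factors gave 0 and 1, then 232 and 371; the DESeq2 test 1 and 26, then 1777 and 2573; the filter of at least 5 CPM in 2 libraries 0 and 0, then 59 and 25; no filter 0 and 0 members; and edgeR's older fit 0 and 0, then 62 and 24. GC correction gave 0 and 10, then 1119 and 1040, with medians of −0.25 in complex II, −0.015 in III and −0.21 in V. GC with length gave 1 and 9, then 1131 and 1090, with medians of −0.24 over all members and −0.30, −0.19, 0.075, −0.042 and −0.076 in complexes I to V, so complex III turned positive. The longest transcript as GC reference gave 1 and 10, then 1218 and 1102, with −0.23, 0.008 and −0.14 in complexes II, III and V, and the coding sequence 0 and 1, then 252 and 183, with −0.28 in complex III.

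Replicate numbers are shared by control and ATRA, but no label says that they pair the libraries, and the deviations of same-numbered libraries correlated at 0.183 over genes. The replicate block gave 2 and 31, then 1350 and 3051, and with GC correction 3 and 16, then 1083 and 1040, with medians of −0.25, −0.022 and −0.21 in complexes II, III and V.

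Leaving out 1 library at a time gave 0 to 14 members higher and 1 to 47 lower (51 to 5011 and 74 to 5278 genes), and with GC correction 0 to 11 and 0 to 39 (0 to 3474 and 0 to 3082 genes). The most calls came without ATRA replicate 1, the next most without ATRA replicate 2. Medians ranged from −1.13 to −0.34 over all members, −0.97 to −0.37 in complex I, −0.77 to −0.35 in II, −1.10 to −0.44 in III, −1.70 to −0.31 in IV and −0.78 to −0.31 in V. With GC correction they ranged from −0.63 to −0.21 over all, −0.70 to −0.26 in I, −0.31 to −0.25 in II, −0.16 to 0.033 in III, −0.96 to 0.067 in IV and −0.33 to −0.17 in V, with positive values in III without control replicate 2 and in IV without ATRA replicate 2. A named member counts here as turned only where the value with the other sign passed its test. That held for Atp5g2 with the longest transcript (1.23) and, in GC-corrected fits with 1 ATRA library left out, for 7 members whose values over all such leave-one-out fits, with and without correction, ranged from −1.33 to 0.64 (Atp5g2), −1.15 to 0.26 (Cox7b), −0.85 to 0.30 (Ndufa4), −0.51 to 0.58 (Ndufs3), −0.52 to 0.69 (Ndufv2), −0.34 to 0.086 (Sdha) and −1.92 to 0.26 (Uqcrc1), with Cox7b at −0.31 without ATRA replicate 2. The cause of these changes was not tested. The depth is lower in the ATRA libraries, and members under 1 CPM rest on few counts.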
